A study of Homo sapiens with 7 samples.

Results

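Aldehyde dehydrogenases (ALDHs) oxidize aldehydes to carboxylic acids with NAD or NADP as the cofactor. The ALDH1A enzymes convert retinal, the aldehyde of vitamin A, to retinoic acid, which enters the nucleus and drives transcription through retinoic acid receptors, and high ALDH1A1 activity is widely used as a marker of stem-like cells in normal and tumor tissue. Other members clear acetaldehyde, fatty aldehydes and products of lipid peroxidation, or act in folate, lysine and choline metabolism. The genes described here are ALDH1A1, ALDH1A2, ALDH1A3, ALDH1B1, ALDH1L1, ALDH2, ALDH3A1, ALDH3A2, ALDH3B1 and ALDH7A1, chosen by the gene name that the array gives each probe. They are 10 of the 34809 gene names on the array and have 17 of its 42405 probes. The list was drawn up with the differences between HOTAIR and control arrays known, so its members' differences are given as a description, and counts past a threshold stand only beside the share of all tested probes.

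ACHN, an established human renal cell carcinoma line, was infected with a retrovirus made from the pBabe-hygro vector, either empty (EV, 4 samples) or carrying HOTAIR cDNA (HOTAIR, 3 samples), and selected with hygromycin, so both groups carry the vector backbone. Whether samples of one group come from separate infections or cultures is not given in the sources used here, and p-values therefore measure only the spread between these samples, which may be technical. RNA of each sample was labeled with Cy3 and hybridized to 1 array. All EV arrays were in slide row 1 and all HOTAIR arrays in slide row 2, so row and group cannot be told apart. Levels are given as the log2 of the processed intensity minus the 75th percentile of the same array. They can be compared between arrays for 1 probe, but not between probes.

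The HOTAIR probe had levels of -6.29, -6.97, -6.42 and -7.07 on EV 1 to EV 4, where it was not well above background, and of -3.12, -3.24 and -2.58 on HOTAIR 1 to HOTAIR 3, where it was. Of 15 markers of kidney epithelium and renal carcinoma 12 were tested, among them PAX8, PAX2, LHX1, KRT8, KRT18, MET and VIM, all well above background on all 7 arrays. Limma passed 0 of these 12 at an adjusted p of 0.05 (0.167% of all tested probes) and 1 (KRT19) at an unadjusted p of 0.05 (5.85%), with 5 higher and 7 lower means on the HOTAIR arrays. With all arrays the largest difference was that of LRP2 (0.53, adjusted p = 0.983), and LHX1 had 0.23 (adjusted p = 0.946), both with overlapping groups. The LRP2 value depends on EV 2, which lay below every other array (-2.45, with HOTAIR 3 next at -1.67). Its place as the largest difference is therefore uncertain. KRT19 (log2 difference -0.41, adjusted p = 0.602) and EPCAM (-0.23, adjusted p = 0.881) were lower on every HOTAIR than on every EV array, and their part in the ALDH1A1 difference was not tested. CDH1, CDH6 and CA9 were well above background on none of the arrays. Of 12 markers of other cells, 8 (VWF, COL1A1, COL1A2, COL3A1, DCN, LUM, CD3E and MS4A1) were well above background on none of the arrays. CDH5 was well above background on 4 arrays, PTPRC on 3 and PECAM1 on 1. CD68 was well above background on all 7, with a log2 difference between the groups of 0.0090. EV 2 lay apart from its group. Over 20419 tested probes, the SD of its deviations from the EV mean was 0.476, against values between 0.246 and 0.299 on the other EV arrays. HOTAIR 3 had the highest SD of its group, 0.285, so the ALDH1A1 difference is also given without these arrays.

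The probes on which the results turn are shown first, each as 60 bases from 5′ to 3′ in lower case, since the whole probe hybridizes. The first pair measures ALDH1A1 at sites far apart in the gene, the next pair ALDH3B1, and the last probe carries the name of ALDH7A1 but is placed away from that gene.
ALDH1A1, A_23_P83098: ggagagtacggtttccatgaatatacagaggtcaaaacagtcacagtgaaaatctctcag
ALDH1A1, A_33_P3379644: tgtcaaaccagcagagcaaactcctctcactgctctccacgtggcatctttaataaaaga
ALDH3B1, A_33_P3367447: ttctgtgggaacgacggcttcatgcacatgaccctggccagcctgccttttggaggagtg
ALDH3B1, A_33_P3236563: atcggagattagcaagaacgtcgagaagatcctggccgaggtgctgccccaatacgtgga
ALDH7A1, A_23_P70231: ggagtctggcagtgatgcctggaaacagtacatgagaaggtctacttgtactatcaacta
The array annotation (hg19) places them on the minus strand at chr9:75516136-75516195 and chr9:75540401-75540460 for ALDH1A1, and on the plus strand at chr11:67793516-67793575 and chr11:67786661-67786720 for ALDH3B1. Each of the 5 holds at least 1 reading frame without a stop codon. Exons and untranslated regions of hg19 were not analysed here. The accessions of 25 of the 27 ALDH probes on the array, those of the 9 other ALDH genes included, matched the RefSeq gene table (GRCh38.p14), all under the symbol that the array gives.

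ALDH1A1, a cytosolic retinal dehydrogenase, was lower on the HOTAIR arrays than on the EV arrays. Its probe A_23_P83098, at the site nearer the 3′ end of the gene, had levels of -0.57, 0.070, -0.79 and -0.65 on EV 1 to EV 4 and of -1.69, -1.64 and -1.27 on HOTAIR 1 to HOTAIR 3. Every HOTAIR array lay below every EV array, and the highest array of each group was EV 2 and HOTAIR 3. The intensities behind these levels were 554 and 558 on the 2 spots of EV 2, between 328 and 450 on those of the other EV arrays, and between 177 and 234 on those of the HOTAIR arrays. The mean level was -0.49 ± 0.38 (SD, n = 4) with EV. With HOTAIR it was -1.54 ± 0.23 (SD, n = 3), so the HOTAIR mean lay 2.07-fold lower (log2 difference -1.05, SE 0.22). This was the 15th lowest difference among the tested probes, of which 0.0882% had a log2 difference of -1 or lower. The difference was -0.86 without EV 2, -1.18 without HOTAIR 3 and -0.99 without both. Fewer cells with ALDH1A1 RNA and less of it per cell cannot be told apart on these arrays.

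The other ALDH1A1 probe, A_33_P3379644, lies 24.3 kb upstream along the genome and was dim. It was well above background on EV 1, EV 3, EV 4 and HOTAIR 1 and did not enter the test. Its levels were -4.57, -5.21, -3.97 and -4.79 on EV 1 to EV 4 and -4.80, -5.01 and -5.48 on HOTAIR 1 to HOTAIR 3. The groups overlapped, and with 1 HOTAIR array above background no difference is given. EV 2 and HOTAIR 3, the highest arrays of their groups at the 3′ probe, were not well above background at this one.

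**Figure D1:**
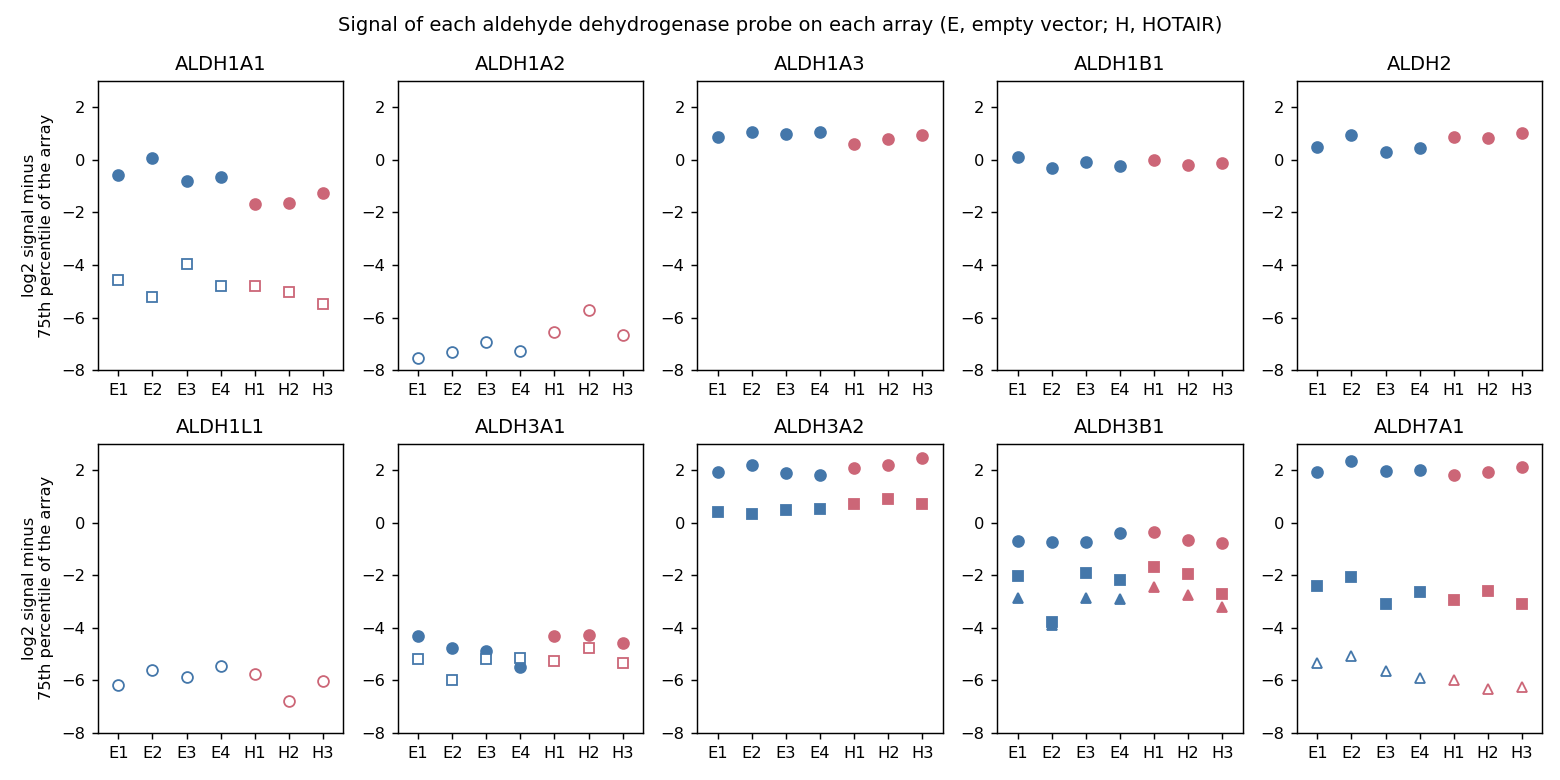
Level of each probe of the 10 genes (log2 processed intensity minus the 75th percentile of the array) on EV 1 to EV 4 (E1 to E4, blue) and HOTAIR 1 to HOTAIR 3 (H1 to H3, red). Circles, squares and triangles are different probes of a gene, filled where the probe was tested and open where it was not, and levels of different probes are not on a common scale. The filled ALDH1A1 circles lie between -0.79 and 0.070 on the EV arrays and between -1.69 and -1.27 on the HOTAIR arrays.

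The other retinal dehydrogenases overlapped between the groups or were near background. ALDH1A3, which makes retinoic acid in the developing eye and nasal region, had clear signal throughout, with levels of 0.86, 1.06, 0.99 and 1.06 on EV 1 to EV 4 and of 0.61, 0.79 and 0.96 on HOTAIR 1 to HOTAIR 3. Its groups overlapped at EV 1 and HOTAIR 3, and the log2 difference was -0.20 (SE 0.12), or -0.12 without HOTAIR 1. ALDH1A2, the main retinoic acid-producing enzyme of the early embryo, was well above background on HOTAIR 2 alone. Its levels were between -7.55 and -6.94 on the EV arrays and -6.55, -5.72 and -6.67 on HOTAIR 1 to HOTAIR 3, where all lay higher, and with 1 array above background no fold is given.

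Both mitochondrial acetaldehyde dehydrogenases were well above background on all arrays. ALDH2, the enzyme that clears most acetaldehyde after alcohol intake, had levels of 0.50, 0.96, 0.32 and 0.45 on EV 1 to EV 4 and of 0.88, 0.85 and 1.01 on HOTAIR 1 to HOTAIR 3. The HOTAIR arrays lay above all EV arrays but EV 2, and the log2 difference was 0.36 (SE 0.17), or 0.49 without EV 2. ALDH1B1, a related enzyme that also oxidizes retinal, had EV levels from -0.31 to 0.097 and HOTAIR levels from -0.20 to 0.0050, with a log2 difference of 0.020 (SE 0.13). ALDH1L1, which oxidizes 10-formyltetrahydrofolate in the cytosol, was well above background on none of the arrays, with levels between -6.17 and -5.44 on the EV arrays and between -6.79 and -5.75 on the HOTAIR arrays.

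The ALDH3 enzymes act on fatty and aromatic aldehydes. ALDH3A2, the fatty aldehyde dehydrogenase whose loss causes Sjögren-Larsson syndrome, has probes annotated to 2 different transcripts. The probe annotated to NM_001031806 had levels of 0.41, 0.34, 0.48 and 0.54 on EV 1 to EV 4 and of 0.72, 0.90 and 0.70 on HOTAIR 1 to HOTAIR 3. All HOTAIR arrays lay above all EV arrays, with a log2 difference of 0.33 (SE 0.11). For the probe annotated to NM_000382 the difference was 0.29 (SE 0.14), or 0.18 without HOTAIR 3. Its groups overlapped at EV 2 (2.18) and HOTAIR 1 (2.07).
ALDH3A1, a stress-inducible enzyme best known from the cornea, was near background. Its tested probe was well above background on all arrays but EV 4, with EV levels from -5.48 to -4.33, HOTAIR levels from -4.58 to -4.27 and a log2 difference of 0.48 (SE 0.25), which was 0.10 with normexp background correction and 0.27 without EV 4. Its second probe was well above background on EV 1, EV 3, HOTAIR 2 and HOTAIR 3. ALDH3B1, which acts on aldehydes from membrane lipids, had log2 differences of 0.045 (SE 0.15), 0.35 (SE 0.48) and 0.33 (SE 0.31) at its 3 probes, and the groups overlapped at each. The values of 0.35 and 0.33 depend on EV 2, which lay below every other array there (-3.8 and -3.9). At the probe with 0.35 the other EV arrays lay between -2.17 and -1.91, and the HOTAIR arrays between -2.73 and -1.71.

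ALDH7A1, or antiquitin, acts in lysine breakdown and betaine synthesis. Its brightest probe, A_23_P70231, had EV levels from 1.93 to 2.34, HOTAIR levels from 1.81 to 2.11 and a log2 difference of -0.11 (SE 0.14), or -0.015 without EV 2. The annotation places this probe at chr5:76587526-76587585 on the plus strand, whereas the other 2 ALDH7A1 probes lie on the opposite strand, at chr5:125879018-125879077 and chr5:125877562-125877621. The RefSeq gene table lists a pseudogene, ALDH7A1P1, on that chromosome. The array annotates A_23_P70231 to the same ALDH7A1 transcript of RefSeq as the tested minus-strand probe. Given its placement, the signal of A_23_P70231 is uncertain as a measure of ALDH7A1, and what it hybridizes to was not tested. Of the minus-strand probes, the tested one gave -0.33 (SE 0.24), and the other was well above background on EV 2 alone. The value of the tested one depends on EV 2, its highest EV array (-2.07, the others from -3.09 to -2.40).

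Of the 10 genes, 8 had at least 1 tested probe, 12 probes in all, and ALDH1A2 and ALDH1L1 had none. At an adjusted p of 0.05, limma passed 0 of these 12 probes, ALDH1A1 included, and 0.167% of all tested probes. At an unadjusted p of 0.05 it passed 2 of the 12 (ALDH1A1 and the NM_001031806 probe of ALDH3A2) and 5.85% of all tested probes. The rank product, at a percentage of false positives of 0.05, passed ALDH1A1 as lower, as it did 0.162% of all tested probes, and no other probe of the 10 genes. The HOTAIR arrays lay wholly below the EV arrays for 1 of the 12 probes (3.50% of all tested probes) and wholly above for 1 (4.20%), thus without overlap for 2 (7.70%). The list was drawn up with these differences known, and nothing is read from these counts. By the brightest tested probe, 5 of the 8 genes had a higher and 3 a lower mean on the HOTAIR arrays, with a median log2 difference of 0.032, beside 0.013 over all tested probes. At these probes the differences of the 7 genes other than ALDH1A1 lay between -0.20 and 0.48, and all were smaller in size than that of ALDH1A1. The upper end was that of ALDH3A1, which was near background and had 0.10 with normexp. ALDH3A1 entered the test through the HOTAIR group alone, where it was higher, and it is among the 5 higher genes. The remaining tested probes lay between -0.33, at the minus-strand probe of ALDH7A1, and 0.35, at a probe of ALDH3B1. Both ends depend on EV 2, the highest EV array at the former probe and the lowest at the latter. With normexp, ALDH1B1 (-0.056) and ALDH3B1 (-0.054) had a lower and ALDH7A1 (0.018) a higher HOTAIR mean.

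**Figure D2:**
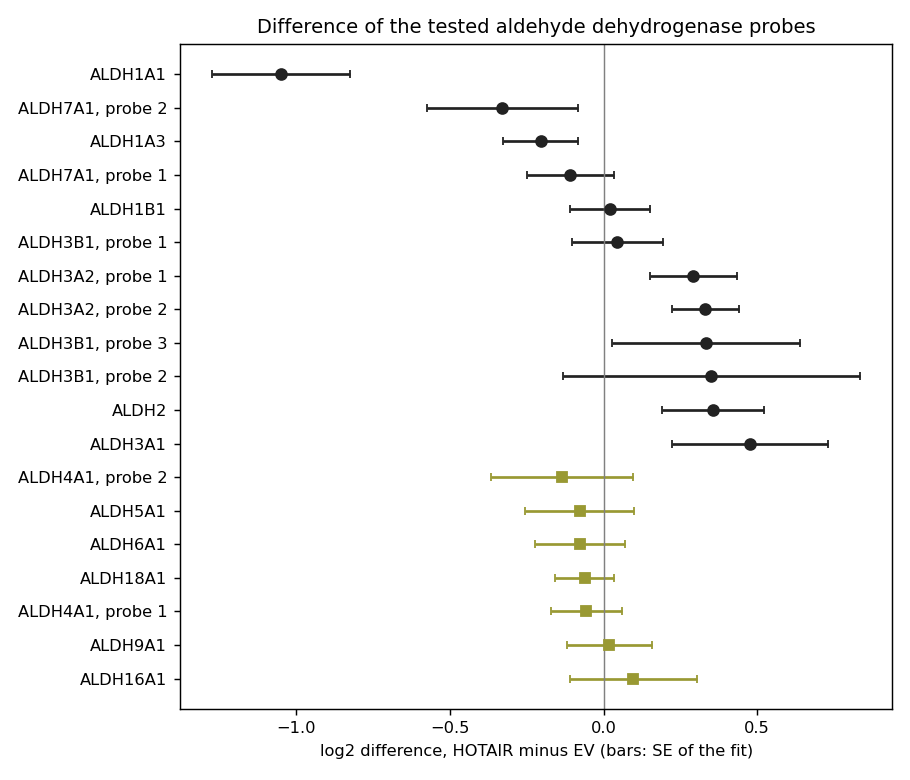
Log2 difference (HOTAIR minus EV) of every tested ALDH probe, with the SE of the limma fit as bars. Black circles are the genes described one by one and green squares the rest of the family; probes of a gene are numbered from the brightest. ALDH1A1 stands at -1.05, and all other probes lie between -0.33 and 0.48.

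The tested genes of the rest of the family had smaller differences than ALDH1A1. ALDH1A1 was chosen with its difference known, so nothing is read from this order. ALDH4A1 and ALDH18A1 act in proline metabolism, ALDH5A1 in the breakdown of GABA, ALDH6A1 in that of valine and ALDH9A1 in carnitine synthesis. Of these 9 genes, 6 were tested, with 7 probes. Limma passed 0 of them at an adjusted p of 0.05 (0.167% of all tested probes) and 0 at an unadjusted p of 0.05 (5.85%), counts near the share of all tested probes, with adjusted p-values from 0.993 to 0.996. At the brightest tested probe of each gene, log2 differences lay between -0.077 for ALDH5A1 and 0.097 for ALDH16A1, with 2 higher, 4 lower and a median of -0.059. The second tested probe of ALDH4A1 gave -0.13, a value that depends on EV 2, its lowest array (-3.05). The other EV arrays (-2.35 to -2.14) lay above every HOTAIR array (-2.83 to -2.45) at this probe. ALDH1L2, the mitochondrial relative of ALDH1L1, ALDH3B2 and ALDH8A1 were well above background on none of the arrays.

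The 3 ALDH genes with several probes at 1 locus that were well above background on all arrays also showed how the arrays of one group differed along a gene. At ALDH3B1, EV 2 deviated from the mean of the other EV arrays by -0.14 at the probe nearest the 3′ end, by -1.76 at the probe 2.15 kb upstream and by -1.03 at the probe 9.0 kb upstream. At ALDH4A1, EV 2 deviated by 0.15 at the 3′ probe and by -0.79 at the probe 11.8 kb upstream, and HOTAIR 3 by 0.25 and -0.37. ALDH3A2, whose probes are annotated to different transcripts (as are those of ALDH3B1 and ALDH4A1), showed the reverse, with -0.14 at the downstream and 0.30 at the upstream probe on EV 2. The part of RNA length or quality in these deviations was not tested. The deviations enter the SD of each probe, which was 0.89 on the EV arrays for the ALDH3B1 probe 2.15 kb upstream and 0.17 for the one nearest the 3′ end.

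**Figure D3:**
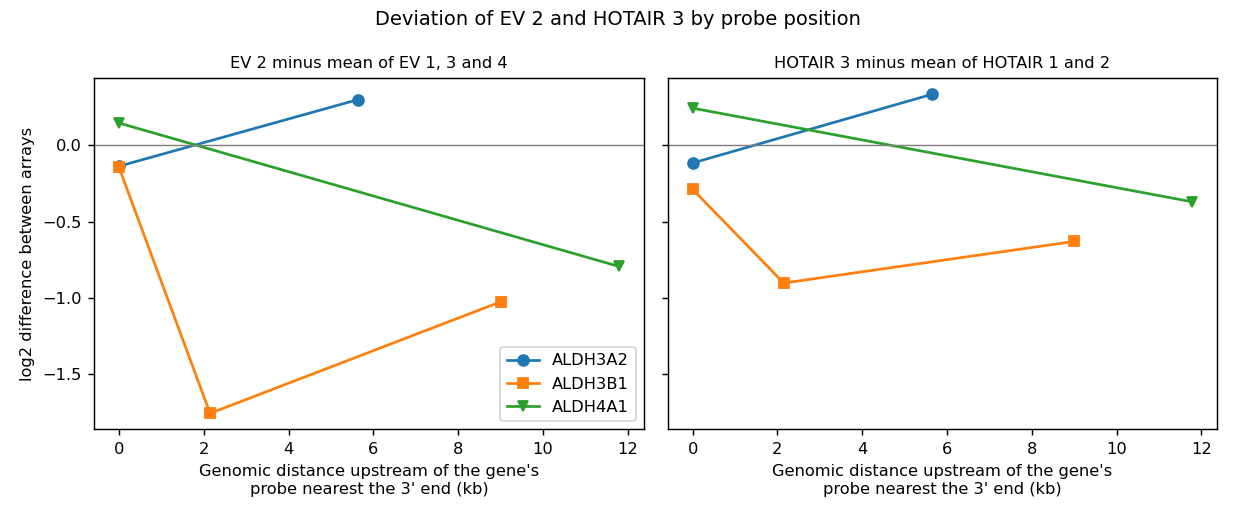
Deviation of EV 2 from the mean of the other EV arrays (left) and of HOTAIR 3 from the mean of the other HOTAIR arrays (right), on the log2 scale, by the genomic distance (kb) of each probe from its gene's probe nearest the 3′ end. Lines join probes of 1 gene, all well above background on every array. For ALDH4A1 the deviation of EV 2 goes from 0.15 at the 3′ probe to -0.79 at the upstream one, and for ALDH3A2 from -0.14 to 0.30.

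Genes that make, carry and read retinoic acid were examined beside the ALDH1A genes. Of 37 such genes, 20 were tested, and 15 were well above background on none of the arrays. Limma passed 1 of the 20 at an adjusted p of 0.05 (0.167% of all tested probes) and 4 at an unadjusted p of 0.05 (5.85%), and their median log2 difference was 0.039, beside 0.013 over all tested probes. The gene that passed was AKR1B10, an aldo-keto reductase that can return retinal to retinol, with levels of -1.53, -1.47, -1.14 and -1.18 on EV 1 to EV 4 and of 1.19, 1.35 and 1.29 on HOTAIR 1 to HOTAIR 3 (log2 difference 2.61, SE 0.14, adjusted p = 0.000487 by limma). With the replicate number as a block its adjusted p was 0.0810 by limma. AKR1B10 was known to differ when the list was drawn up.
Among the enzymes that oxidize retinol to retinal, the lowest values were those of DHRS9 and RDH10, and neither passed. DHRS9 had levels of -3.92, -3.86, -4.73 and -4.91 on EV 1 to EV 4 and of -5.37, -5.28 and -4.82 on HOTAIR 1 to HOTAIR 3, which overlapped at EV 4 and HOTAIR 3 (log2 difference -0.80, SE 0.30, adjusted p = 0.758 by limma). It was well above background on 5 of the 7 arrays, and with normexp its difference was -0.23, so the size of this difference is not established. DHRS9 is among the 4 genes past the unadjusted p. Like CRABP1 below, it entered the test through 1 group alone, and the counts and median above include both. RDH10, the main retinol dehydrogenase of the embryo, had EV levels from 0.46 to 0.74 and HOTAIR levels from 0.085 to 0.28, without overlap (log2 difference -0.39, SE 0.12, adjusted p = 0.545 by limma).
Of the carriers, CRABP1 was well above background on 4 of the 7 arrays. Its log2 difference was 0.49 (adjusted p = 0.926 by limma) but 0.060 with normexp, so its size is not established. CRABP2 differed by -0.22 and FABP5 by 0.070 (0.019 without HOTAIR 2), while STRA6 and RBP4 were well above background on none of the arrays. The receptors RARA, RARG, RXRA and RXRB were tested with 0 passing at either p, and the largest difference was 0.17 for RARA (adjusted p = 0.973 by limma). RARB, itself a target of retinoic acid, was well above background on 1 array. Of the 9 targets of retinoic acid 4 were tested. Limma passed 0 at an adjusted p of 0.05 (0.167% of all tested probes) and 1 (TGM2) at an unadjusted p of 0.05 (5.85%). TGM2, a transglutaminase, differed by 0.30 on the log2 scale without overlap of the groups (adjusted p = 0.771 by limma), and DHRS3, which reduces retinal, by -0.19 (adjusted p = 0.959 by limma). CYP26A1 and CYP26C1, which break retinoic acid down, were well above background on none of the arrays, and CYP26B1 was on 3.

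**Figure D4:**
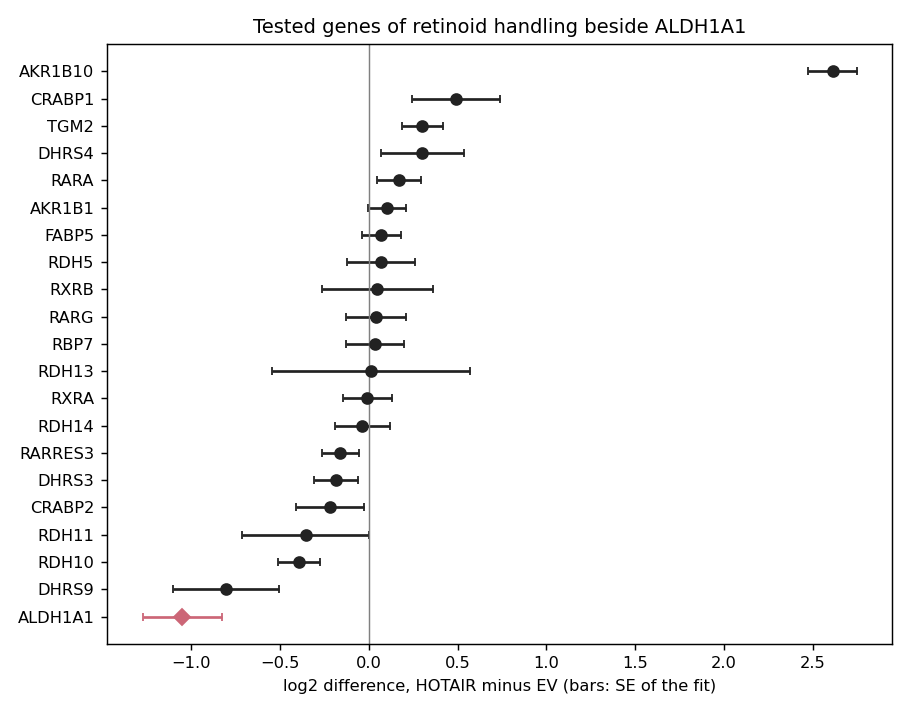
Log2 difference (HOTAIR minus EV) of the 20 tested genes of retinoid handling (black circles), with ALDH1A1 (red diamond) below them for comparison; bars are the SE of the limma fit. AKR1B10 stands at 2.61, DHRS9 at -0.80 and RDH10 at -0.39.

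For the enzymes that act next to the other members, the counts that passed are set beside the 0.167% of all tested probes that passed an adjusted and the 5.85% that passed an unadjusted p of 0.05, and with so few genes a count of 0 is near both shares. Of 14 one-carbon folate enzymes around ALDH1L1, 13 were tested and limma passed 0 at an adjusted and 0 at an unadjusted p of 0.05. The lowest were MTHFD1L (-0.18, or -0.0021 without HOTAIR 1), AMT (-0.17, or -0.082 without EV 2) and MTHFD1 (-0.15), with adjusted p-values of 0.993, 0.993 and 0.942 by limma. Of 10 sources and other oxidases of aldehydes, 4 were tested with 0 passing at either p (catalase 0.073, AOX1 0.034 and ADH5 0.033). The monoamine oxidase MAOB was well above background on none of the arrays and MAOA was on 1. Of 9 partners of ALDH7A1 and ALDH3A2 in lysine, choline and lipid breakdown, 7 were tested with 0 passing at either p. AASS, the first enzyme of lysine breakdown, had 0.32 (adjusted p = 0.926 by limma), the aminoadipate transaminase AADAT -0.33 (adjusted p = 0.939) and the sphingosine phosphate lyase SGPL1 -0.23 (adjusted p = 0.949).

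The genes whose levels over the 7 arrays were most like those of ALDH1A1 were sought by Pearson's r among 12581 named genes, as a description. The highest were MATN2, an extracellular matrix protein (r = 0.991), the ribosomal S6 kinase RPS6KA2 (0.986), the inositol phosphate kinase ITPKA (0.986), the lysosomal protease CTSH (0.983) and the chemokine CCL2 (0.981). The lowest were the sterol hydroxylase CYP27A1 (-0.990), DPYSL5 (-0.987), WAS (-0.984), IQCD (-0.983) and TP53I11 (-0.982). Of the genes compared, 187 had an r of 0.9 or more and 160 an r of -0.9 or less, over arrays that share the groups and the deviation of EV 2. With the group means removed, the same 10 genes had r between 0.925 and 0.958 or between -0.953 and -0.920. They were picked for their extreme r over the same arrays, so these values are no separate check. MATN2 had levels of 0.13, 0.44, 0.11 and 0.19 on EV 1 to EV 4 and of -0.34, -0.35 and -0.11 on HOTAIR 1 to HOTAIR 3, highest on EV 2 and HOTAIR 3 as ALDH1A1 was. None of these genes passed an adjusted p of 0.05 in the comparison of HOTAIR with EV, with adjusted p-values by limma from 0.144 for TP53I11 to 0.901 for ITPKA.

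The ALDH1A1 difference was negative under every processing alternative. With arrays left out its sign could not change, since every HOTAIR array lay below every EV array, so that sign is no separate check. The log2 difference lay between -1.10 (replicate number as a block) and -0.83 (normexp background correction) among the other settings. With 1 array left out it lay between -1.18 and -0.86. The adjusted p by limma was 0.223 as described. It lay between 0.072 (EV 2 and HOTAIR 3 both left out) and 0.669 (replicate block) among the other settings. With 1 array left out the adjusted p lay between 0.138 and 0.813.

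**Figure D5:**
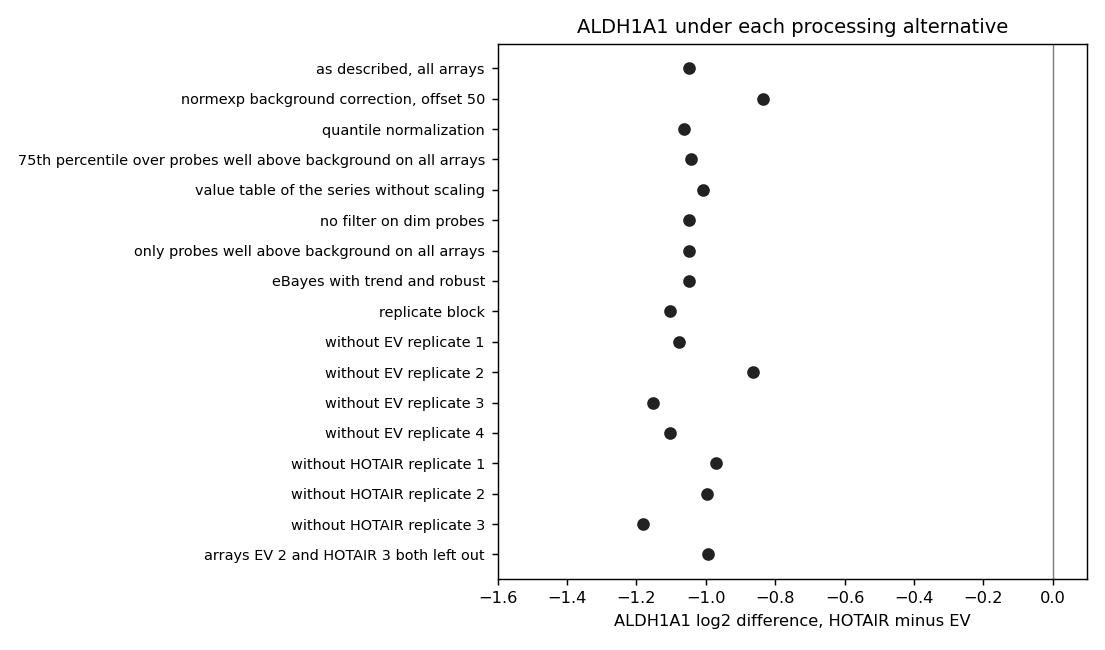
Log2 difference (HOTAIR minus EV) of ALDH1A1 at probe A_23_P83098 as described and under each alternative, 1 point per setting. All points lie between -1.18 and -0.83.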

How the data were processed

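The authors extracted 7 single-color Agilent SurePrint G3 Human GE arrays with Agilent Feature Extraction 10.7.3.1, as the submitters' processing notes name it, and deposited its intensity per spot: the processed intensity (background subtracted and detrended, no scaling between arrays), the raw mean and the local background. A deposited table holds the same processed intensities. With R 4.3.3 and limma 3.58.1, log2 processed intensity was centered on the 75th percentile of 58717 non-control spots per array, outlier spots were left out and spots of a probe averaged. Probes well above background (on at least 0.5 of the spots) on every array of 1 group were tested, 20419 in all. HOTAIR was compared with EV by lmFit and eBayes with Benjamini-Hochberg adjustment. The brightest tested probe represents a gene. The rank product, which the study's methods name, used 12 comparisons and 100 permutations. Both were tested on simulated data. Intensities at the 75th percentile were 523 to 649, 48.7% to 52.1% of probes were well above background and 0 spots were saturated. The number of arrays, 4 and 3, limits the precision of each mean.
The members, gene lists and tests were chosen with earlier results of these data known. Named are all ALDH genes, the genes of each pathway list (not the marker lists) past the adjusted p, its 3 largest differences, the 5 genes most and least like ALDH1A1 (lincRNA, clone and accession names left out), and further list members given only as detected or as examples, chosen after their values were seen. Alternatives were normexp (offset 50), other scalings and filters, eBayes with trend and robust, a replicate block and each array left out. Leaving out EV 2 and HOTAIR 3 together was added after the data were seen.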

Additional observations from a re-analysis of the deposited data

Results flagged for a closer look

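Of 44 genes tested for a single EV array apart from the other 3, 4 passed Dixon's test, which chance passes in about 1 of 20 groups. That rate does not hold for the 10 of these genes chosen for their likeness to ALDH1A1, CCL2 among them, for which EV 2 was the array farthest apart in 10 of 10. Of the other 34 genes, 3 passed, and EV 2 was the array farthest apart in 14. ALDH3B1 was highest on EV 4 at its brightest probe (-0.40, the others from -0.75 to -0.70), a gap of 0.857 of the group's range. The sphingosine phosphate lyase SGPL1 was lowest on EV 3 (0.028, the others from 0.27 to 0.32), a gap of 0.854. The retinoid receptor RXRB was lowest on EV 2 (-2.65, the others from -1.57 to -1.38), a gap of 0.850. CCL2 was highest on EV 2 (-2.21, the others from -2.83 to -2.73), a gap of 0.833. Limma did not call any of these genes, and ALDH1A1, with a gap of 0.744 at EV 2, did not pass.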

How the results depend on the processing

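Limma called 27 probes higher and 7 lower. With normexp background correction the counts were 10 and 2, with no filter on dim probes 13 and 1, with trend and robust moderation 17 and 3, and with the deposited table without scaling 23 and 2. Restricting the test to probes with signal on all arrays gave 16 higher, leaving out EV 2 and HOTAIR 3 gave 1 lower, and the rank product gave 52 and 33. With 1 array left out there were 9 to 28 higher (9 without EV 1, 12 without EV 3, 11 without EV 4, 15 without HOTAIR 1, 13 without HOTAIR 2) and 0 to 2 lower. Limma called 0 probes of the 10 ALDH genes under every setting, and the rank product called 1, ALDH1A1. Of all tested probes, limma as described called 0.167%, and the rank product called 0.162% lower and 0.255% higher. The list was drawn up with the differences known, and nothing is read from these counts. Deviations of same-numbered arrays correlated at r = 0.39, -0.37 and -0.41 for numbers 1 to 3, so the numbers were not taken to pair the arrays. With the replicate block 0 probes were called higher and 0 lower, and AKR1B10 had an adjusted p of 0.0810 by limma (log2 difference 2.66; from 0.00153 to 0.00916 with 1 array left out). EV 4 has no HOTAIR array of its number, so the block gave the same differences as leaving out EV 4 (ALDH1A1 -1.10 in both). The block also left fewer degrees of freedom than the fit without it. The cause of the changes in the called probes was not tested.

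Uncalled differences near 0 changed sign: ALDH9A1 (-0.049), RARG (-0.034), ALDH18A1 (0.0078), ALDH1B1 (-0.056), ALDH3B1 (-0.054) and ALDH7A1 (0.018) with normexp, ALDH6A1 (0.027), AOX1 (-0.0053) and ALDH1B1 (-0.0088) with the replicate block, and RXRB (-0.082), ADH5 (-0.020) and ALDH1B1 (-0.026) without EV 2 and HOTAIR 3. With 1 array left out the ranges were -0.038 to 0.096 for ALDH1B1, -0.078 to 0.14 for ALDH3B1, -0.040 to 0.28 for ALDH16A1, -0.044 to 0.13 for ALDH9A1, -0.14 to 0.016 for ALDH4A1, -0.14 to 0.027 for ALDH6A1, -0.25 to 0.031 for ALDH5A1, -0.24 to 0.20 for RXRB, -0.074 to 0.16 for RARG, -0.074 to 0.34 for catalase (CAT), -0.070 to 0.13 for AOX1 and -0.012 to 0.067 for ADH5. Without a change of sign, the ranges with 1 array left out were -0.19 to -0.015 for ALDH7A1, -0.29 to -0.12 for ALDH1A3, -0.43 to -0.19 for AADAT, -0.37 to -0.13 for SGPL1, -0.36 to -0.10 for CRABP2 and -0.28 to -0.12 for DHRS3. They were 0.18 to 0.38 for ALDH3A2 and 0.019 to 0.15 for FABP5. Signal near background limits ALDH3A1, ALDH1A2, DHRS9, CRABP1 and the upstream ALDH1A1 probe.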
